A study of Drosophila melanogaster with 40 samples.

Results

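Expression was described for 8 Drosophila genes of fat storage and fatty acid synthesis, out of 17490 genes counted in 40 RNA-seq libraries. The members were chosen by name as ACC, CG3523, CG3524, SREBP, mdy, Lsd-1, Lsd-2 and bmm. Of these, 6 were found under those names in the deposited table. CG3524 and SREBP were listed there under older names, v(2)k05816 and HLH106, and were matched by their FlyBase identifiers FBgn0042627 and FBgn0261283. All 8 passed the filter on low counts in each comparison.

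The libraries came from flies that express feline MYBPC3, the gene of cardiac myosin binding protein C, as a model of hypertrophic cardiomyopathy. The lines were A31P and R820W, which carry the 2 feline mutations, and WT, which carries the unmutated feline gene. The control line was attP2, which holds the empty landing site. The lines had the genotype w1118/y, w; Chr2/+; UAS-MYBPC3/TinCΔ4-Gal4, and the control carried attP2 in place of the UAS transgene, so that every group had 1 copy of the heart driver TinCΔ4-Gal4. The inserted vector also carried the white+ eye marker, so the lines differed from attP2 in vector and marker as well as in MYBPC3. Against attP2, these cannot be told apart. All transgenes sat at the common attP2 integration site. The feline protein was thus driven in the heart, whereas the RNA was extracted from pools of 10 whole bodies, so that fat body, gut, ovary and testis contributed alongside the heart. Each line was sampled as larvae of the last instar, exercised males, nonexercised males, exercised females and nonexercised females, with 2 pools each. The adults were 1 week old. Exercised flies had a climbing assay on the day before the exercise session, in which they were shaken in pulses in empty vials. They were frozen after a further climbing assay, whereas the other flies were frozen after recovery from CO2. The exercise itself, the empty vials and the handling cannot be told apart, and the exercise difference below covers all of them.

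In animal cells, acetyl-CoA carboxylase (ACC) makes malonyl-CoA, and fatty acid synthase strings malonyl-CoA units into fatty acids. In Drosophila these enzymes are most active in the fat body, the organ that combines the tasks of liver and adipose tissue, and in the oenocytes beneath the cuticle. The fatty acids are joined to glycerol as triacylglycerol, which is kept in lipid droplets until lipases release it for flight, starvation or egg production. CG3523 and CG3524 encode the fatty acid synthases FASN1 and FASN2. SREBP encodes the membrane-bound transcription factor that drives genes of fatty acid synthesis when phosphatidylethanolamine is low in the fly. mdy (midway) encodes diacylglycerol acyltransferase, the last enzyme of triacylglycerol synthesis. Lsd-1 and Lsd-2 encode the perilipins, proteins that coat the droplet and control access to it, and bmm (brummer) encodes the main droplet lipase, a relative of mammalian ATGL.

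The positions deposited for the 8 genes were identical to those of the BDGP6.54 annotation. The synthases lie head to tail on the plus strand of chromosome arm 2L, CG3524 at 3043947 to 3056143 and CG3523 at 3056598 to 3068177. mdy lies on the same arm at 16816660 to 16826964 on the plus strand. ACC is on the minus strand of 2R at 7974115 to 7991862, SREBP on the plus strand of 3L at 19793935 to 19798979, and bmm on the minus strand of 3L at 14776496 to 14786412. Lsd-1 is on the plus strand of 3R at 23763857 to 23766662, and Lsd-2 on the minus strand of the X at 15069127 to 15076220. Exons of Lsd-1 overlap those of CG10214 on the opposite strand, and exons of SREBP overlap those of CG14102 on the opposite strand. The libraries were directional, but the strand setting of the counting was not given in the sources used here, so reads of these overlapping pairs may be shared.

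Library totals lay between 18493813 and 26917796 counts. Genes named as rRNA took 4.64% to 27.4% of them, and the 7SL genes 2.09% to 18.2%. These shares differed between the sets. The 7SL share was 2.09% to 3.56% in exercised males, 11.3% to 18.2% in nonexercised males and 8.08% to 13.3% in exercised females. The rRNA share was 4.64% to 8.13% in exercised males and 18.4% to 27.4% in larvae. It was 12.7% to 19.8% in exercised females and 6.48% to 13.5% in nonexercised females. Exercise in either sex, sex in exercised flies, the interaction of sex and exercise, and larvae against adults thus compare libraries of different composition. Larvae and nonexercised flies were run in lane 7 (replicate 1) and lane 8 (replicate 2), whereas exercised females were run in lane 1 and exercised males in lane 3 of another flow cell. Flow cell and exercise cannot be told apart for that reason, and neither can lane and sex among exercised flies. Markers of sex fitted the labels with exceptions in males. The 14 yolk and eggshell genes, which ovary and female fat body make, summed to 5127 CPM (counts scaled to a common library size, TMM-normalised over the 40 libraries) in the second library of A31P exercised males and to 412 CPM in the second of R820W exercised males. In the other 6 libraries of exercised males they summed to between 8.43 and 14.1 CPM, and in exercised females to at least 9336 CPM. Nonexercised males had at most 14.6 CPM, apart from the first attP2 library with 123 CPM. Each test of the 8 genes that was called in exercised males was repeated without the A31P and R820W libraries in question.

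Within a library, levels were compared per transcript length on the deposited TPM scale. TPM values carry no normalization between libraries, so the medians below rank genes within a set and do not compare sets. CG3523 was first of the 8 genes in all 4 adult sets, with a median of 505 TPM in exercised males, 267 TPM in nonexercised males, 83 TPM in exercised females and 214 TPM in nonexercised females. It was above ACC, the second gene in males and in nonexercised females, in all 8 libraries of each of these sets, and above Lsd-2, the second gene in exercised females, in 6 of 8 libraries. In larvae Lsd-1 came first with a median of 117 TPM, and its lowest larval library lay above the highest of CG3523, the second gene at 16.7 TPM. CG3524 was last in larvae, with a median of 1.13 TPM in 8 libraries.

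Some neighbours in the order were not separated. Lsd-1 and bmm were in that order in 4 of 8 libraries in both sexes of exercised flies. In larvae, Lsd-2, mdy and SREBP had medians of 13.5, 13.2 and 13.0 TPM, with overlapping ranges. mdy was last in 3 of the adult sets and next to last in exercised females, where it was above CG3524 in 5 of 8 libraries.

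**Figure D1:**
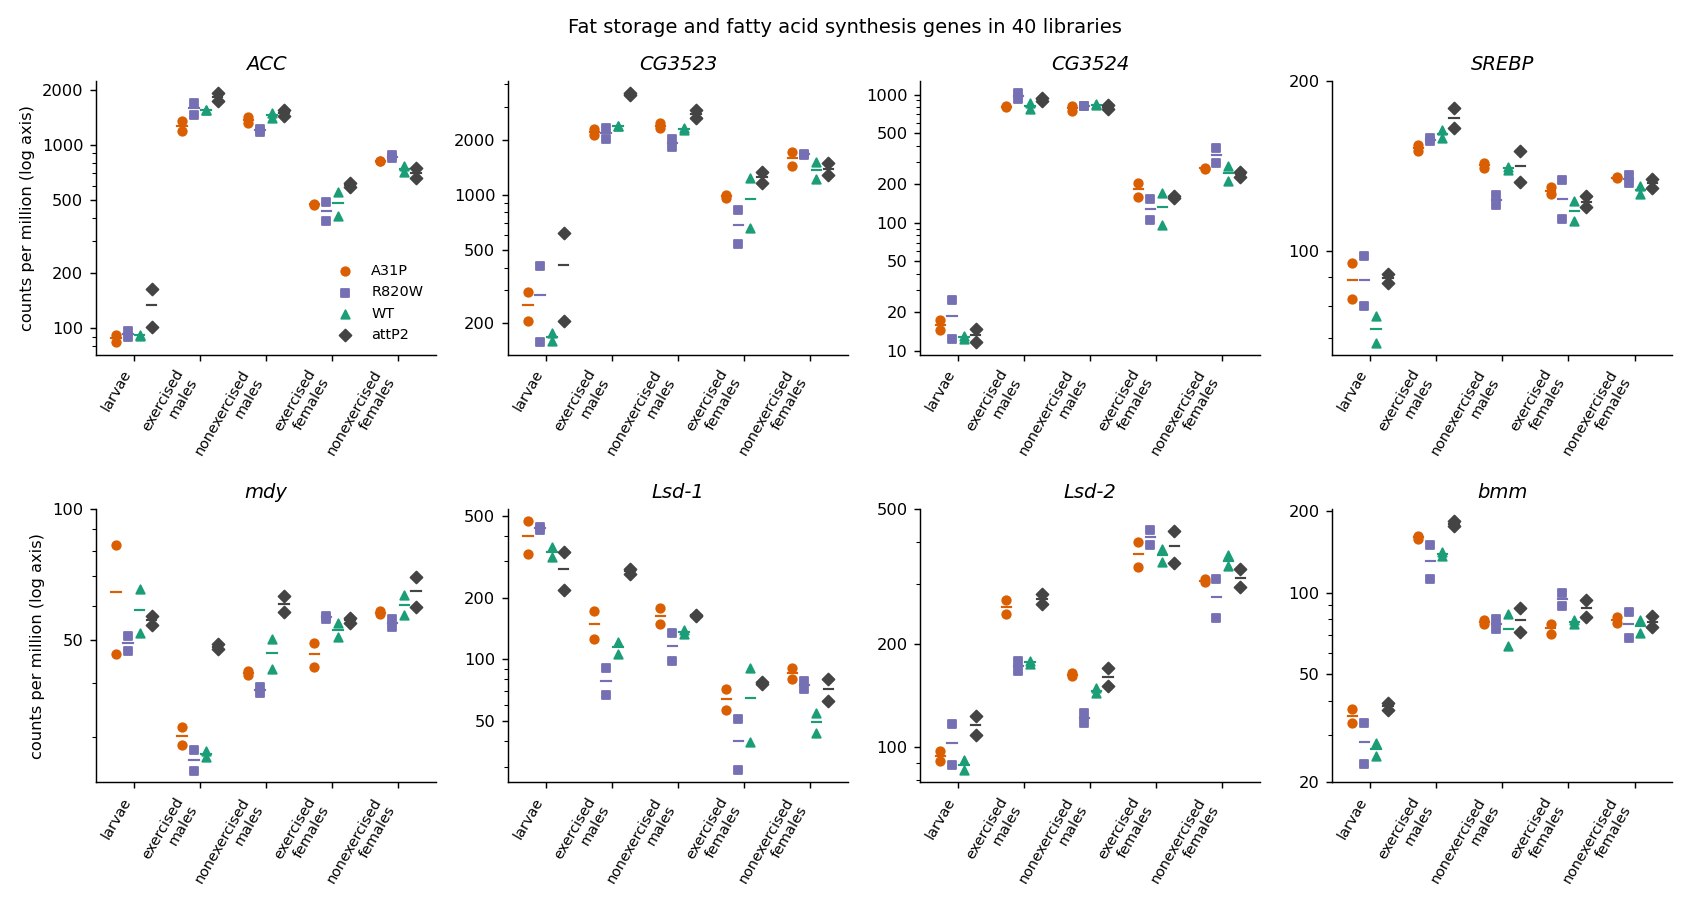
CPM (log axis, TMM-normalised) of each gene in every library, by set and genotype, with short lines at the mean of the 2 libraries of a group. CG3523, CG3524 and ACC are lowest in larvae and highest in males, and the attP2 libraries of exercised males stand above the other lines for mdy, CG3523 and Lsd-1.

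The first question was whether expression of the MYBPC3 alleles goes with altered expression of these genes. In exercised males it did for 4 of the 8 genes. mdy and CG3523 were lower in A31P, R820W and WT than in attP2, and Lsd-1 and Lsd-2 were lower in R820W and WT. Genes counted as called had an adjusted p under 0.05 and an absolute Log2FC above 0.5, and every adjusted p is from the quasi-likelihood test of edgeR with Benjamini-Hochberg adjustment over all genes tested. The calls were 2 of 8 genes in A31P, 4 of 8 in R820W and 4 of 8 in WT, all lower, beside 0.568%, 0.841% and 1.14% of all genes in either direction and 0.381%, 0.518% and 0.597% of all genes lower. In bulk RNA, fewer cells of a type and less RNA per cell cannot be told apart.

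Lsd-1, the perilipin that both protects droplets and admits lipases, had the largest difference. Its levels were 172 and 126 CPM in A31P exercised males, 90.5 and 67.4 CPM in R820W males, 122 and 107 CPM in WT, and 275 and 260.0 CPM in attP2. Every library of the 3 lines lay below both attP2 libraries. The Log2FC was -1.72 ± 0.18 (SE) in R820W (adjusted p = 0.0122) and -1.19 ± 0.18 in WT (adjusted p = 0.0332), and that of A31P, -0.81 ± 0.17, missed the threshold (adjusted p = 0.103). Lsd-2, the perilipin that shields stored fat, had 246 and 270.3 CPM in A31P males, 179 and 167 CPM in R820W males, 175 and 179 CPM in WT, and 281 and 263 CPM in attP2. A31P overlapped attP2, with a Log2FC of -0.03, whereas R820W (-0.61 ± 0.08, adjusted p = 0.0219) and WT (-0.58 ± 0.08, adjusted p = 0.0239) did not overlap it. Between A31P and WT the Log2FC of Lsd-2 was 0.55 ± 0.08, which missed the threshold (adjusted p = 0.102).

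mdy, the acyltransferase, measured 28.8 and 31.6 CPM in A31P exercised males, 28.1 and 25.1 CPM in R820W, 27.9 and 27.1 CPM in WT, and 49.1 and 47.7 CPM in attP2. The 6 libraries of the lines lay close together and below both attP2 libraries. The Log2FC was -0.64 ± 0.09 in A31P (adjusted p = 0.0357), -0.82 ± 0.09 in R820W (adjusted p = 0.0132) and -0.78 ± 0.09 in WT (adjusted p = 0.0160).

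The synthases, neighbours on the chromosome, had different values in the same libraries. CG3523 measured 2274 and 2119 CPM in A31P exercised males, 2319 and 2019.9 CPM in R820W, 2376 and 2358 CPM in WT, and 3487 and 3569 CPM in attP2. It was called in all 3 lines, with Log2FC of -0.64 ± 0.08 in A31P (adjusted p = 0.0211), -0.66 ± 0.08 in R820W (adjusted p = 0.0189) and -0.54 ± 0.08 in WT (adjusted p = 0.0330). Those of CG3524 were 811 and 798 CPM in A31P males, 1019 and 926 CPM in R820W males, 856 and 767 CPM in WT, and 889 and 943 CPM in attP2, and the Log2FC lay between -0.15 and 0.13 with no call. CG3524 accordingly made up 27.6% and 28.7% of the TPM of both synthases in A31P, 32% and 32.9% in R820W, 27.9% and 25.9% in WT, and 21.5% and 22.1% in attP2. The share was lower in attP2 than in every library of the lines, and the difference between the responses of the 2 genes was not tested.

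The remaining 3 genes were not called. ACC, which supplies both synthases, measured 1348 and 1197 CPM in A31P exercised males against 1728 and 1909.6 CPM in attP2, a Log2FC of -0.47 ± 0.10 (adjusted p = 0.0971). In R820W and WT its Log2FC was -0.16 and -0.19. bmm measured 113 and 149 CPM in R820W and 136 and 141 CPM in WT, against 176 and 184 CPM in attP2, with Log2FC of -0.41 and -0.34. SREBP ranged from 150.4 to 164 CPM in the 3 lines and measured 165 and 179 CPM in attP2, with Log2FC between -0.14 and -0.06.

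Across the 3 lines, 10 of 24 tests in exercised males were called, all lower, and 23 of 24 Log2FC were below 0. The median Log2FC of the 8 genes was -0.31 in A31P, -0.51 in R820W and -0.44 in WT, beside medians over all genes of 0.07, 0.04 and 0.00. The 3 comparisons share the same 2 attP2 libraries. Without the A31P and R820W libraries with yolk and eggshell RNA, A31P and R820W had 1 library each, which was assumed to vary like the other groups. All 10 called differences kept their direction and an absolute Log2FC above 0.5 in that fit. Genes not called with all libraries passed this fold threshold there too. The Log2FC of bmm in R820W was -0.67, against -0.41 with all libraries, and that of Lsd-1 in A31P was -0.63. Leaving out any 1 library of the set moved the Log2FC of the called genes to between -1.94 and -0.52, but without either attP2 library or either WT library the number of calls against attP2, over all sets, fell to 2 or 3 of 120, against 12 with all libraries.

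Arm 2L, which carries mdy and both synthases, held a larger share of called genes than the other chromosomes in these comparisons. On 2L, 1.57% of genes were called in A31P, 1.83% in R820W and 2.83% in WT exercised males, against 0.329%, 0.606% and 0.73% elsewhere. The paper describes the lines and attP2 as co-isogenic. Whether their second chromosomes differ was not tested here.

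In nonexercised males 19 of 24 Log2FC were below 0, with 2 calls, both for mdy, beside 1.07% of all genes called in A31P, 0.679% in R820W and 0.97% in WT. The levels of mdy were 41.6 and 42.5 CPM in A31P males, 39 and 38 CPM in R820W males, 43 and 50.3 CPM in WT males, and 58.1 and 63 CPM in attP2 males. All 6 libraries of the lines lay below attP2. The Log2FC was -0.52 ± 0.10 in A31P (adjusted p = 0.0421) and -0.65 ± 0.10 in R820W (adjusted p = 0.0198), and that of WT, -0.37 ± 0.10, missed the threshold (adjusted p = 0.119). The A31P call was lost when any 1 of 7 of the 8 libraries was left out, at adjusted p of up to 0.316 or a Log2FC of -0.45, with the 2 groups alone (adjusted p = 0.103) and without normalization factors (Log2FC -0.43, adjusted p = 0.0508), and the R820W call without either A31P or either R820W library and with the 2 groups alone (adjusted p = 0.16).

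CG3523 in R820W nonexercised males came close to a call. It measured 1825 and 2022 CPM in R820W against 2906 and 2619 CPM in attP2, without overlap, and its Log2FC was -0.51 ± 0.10 (adjusted p = 0.0555), a difference that DESeq2 called. Lsd-2 had a Log2FC of -0.40 ± 0.09 there (adjusted p = 0.0891), and Lsd-1 one of -0.49 ± 0.14 (adjusted p = 0.190). In attP2 itself, Lsd-1 had 275 and 260.0 CPM in exercised males and 165 and 163 CPM in nonexercised males.

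**Figure D2:**
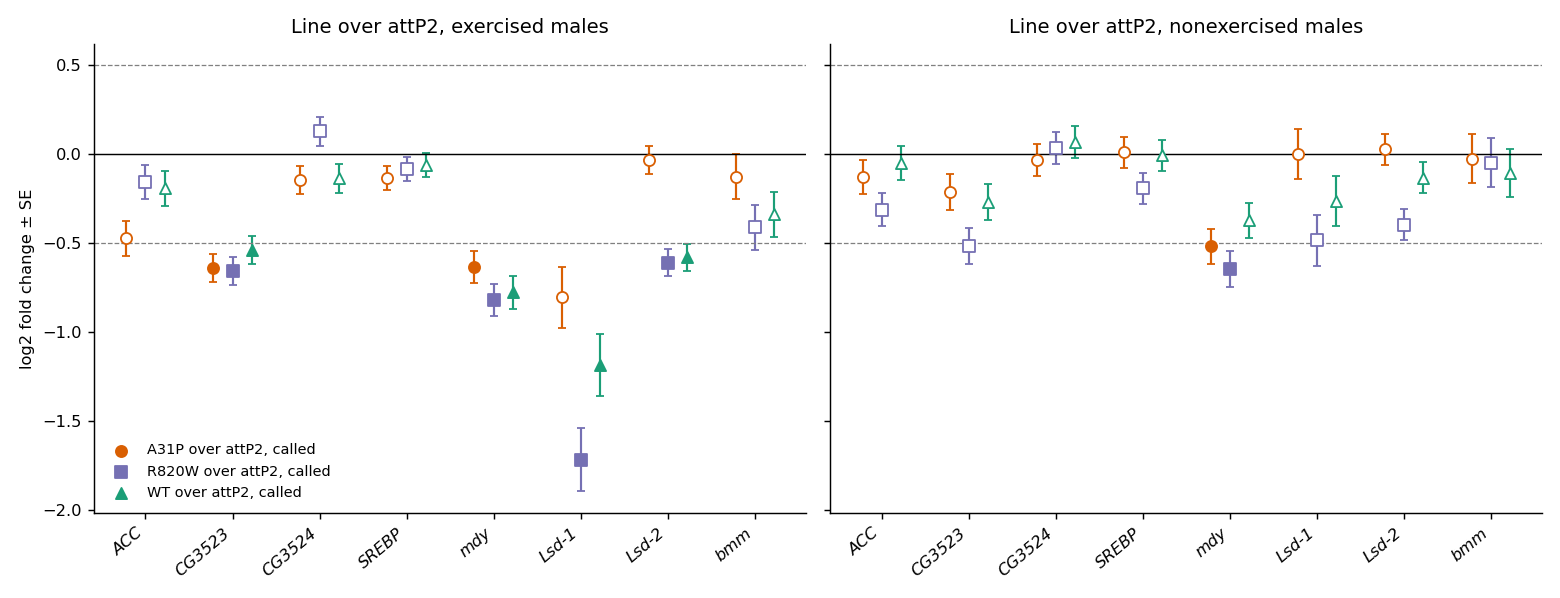
Log2 fold change of each gene in A31P, R820W and WT over attP2 in exercised males (left) and nonexercised males (right), with SE bars. Filled symbols passed both thresholds, and dashed lines mark an absolute Log2FC of 0.5. mdy and CG3523 are filled for all 3 lines in exercised males, and only mdy in A31P and R820W is filled in nonexercised males.

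In larvae and in both sets of females, no gene was called against attP2. edgeR's quasi-likelihood test called 0 of 72 tests, 12 had an unadjusted p under 0.05 and DESeq2 called 1. The background of the edgeR calls was 0.0751% of all tests pooled over these 9 comparisons. In single ones, 279 of 10712 to 1733 of 11063 genes had an unadjusted p under 0.05 in edgeR's test. DESeq2 called 51 of 10712 to 210 of 12848 genes. In simulated counts of WT against attP2, edgeR's test called 6% of genes given an absolute Log2FC of 1 in larvae. In exercised males it called 69% of such genes, so the absence of calls in larvae does not exclude differences of that size. Among adult females, the lowest Log2FC were those of R820W exercised females. CG3523 measured 537 and 821 CPM in them against 1164 and 1329.5 CPM in attP2, a Log2FC of -0.95 ± 0.28 (adjusted p = 0.474), and DESeq2 called this difference. Lsd-1 measured 29 and 51.2 CPM against 77.9 and 75.7 CPM, a Log2FC of -1.01 ± 0.37 (adjusted p = 0.567). Fitted with these 2 groups alone, both genes and ACC were called. These groups did not overlap, but the libraries of WT exercised females spread as widely, from 659.9 to 1233 CPM for CG3523 and from 39.5 to 91 CPM for Lsd-1. In larvae, CG3523 measured 156 and 408 CPM in R820W and 176 and 158 CPM in WT, against 203 and 620.1 CPM in attP2. R820W overlapped attP2, whereas WT lay below it, with a Log2FC of -1.39 ± 0.64 (adjusted p = 0.431). Both WT larval libraries were also below both attP2 libraries for bmm, Lsd-2, ACC and SREBP (Log2FC of -0.60, -0.46, -0.62 and -0.37). For mdy, CG3524 and Lsd-1 the libraries overlapped. How many of all genes lay apart in this way was not counted. For bmm, Lsd-2 and ACC the unadjusted p of edgeR's test was under 0.05, beside 1538 of the 12848 genes tested.

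Against WT, which asks what the mutations add to the feline gene, the test called 0 of 80, while 14 had an unadjusted p under 0.05 and DESeq2 called 4. The background of the edgeR test was 0.202% of all tests pooled over these 10 comparisons, and 0% to 1.04% in single ones. Genes with an unadjusted p under 0.05 numbered from 170 of 12848 to 3666 of 11063 in single comparisons. The latter was R820W in nonexercised females, where 4 of the 8 members had such a p. The nearest to a call was Lsd-1 in nonexercised females. There it stood at 91.3 and 80.6 CPM in A31P and at 72.1 and 78.3 CPM in R820W, against 44.1 and 54.7 CPM in WT, and all 4 mutant libraries were higher. The Log2FC was 0.86 ± 0.16 in A31P (adjusted p = 0.107) and 0.67 ± 0.15 in R820W (adjusted p = 0.0704). With the replicate number, which stands for the lane in these flies, as a block, both were called (Log2FC 0.87, adjusted p = 0.0349, and 0.68, adjusted p = 0.029). The shares of all genes given above, 0.202% pooled and up to 1.04% in single comparisons, are from edgeR's fit without the block. They are therefore no background for the calls made with the block or by DESeq2. DESeq2's calls included Lsd-1 and CG3524 in R820W nonexercised females, the comparison with 3666 genes at an unadjusted p under 0.05.

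Sex was the next comparison, and it concerned most of the genes. Nonexercised males had more RNA of both synthases, ACC and Lsd-1 than nonexercised females, and less of Lsd-2. The number of genes called, 5 of 8, stands beside 80.1% of all genes tested, so that a call by itself says little here. The median Log2FC of all genes was 0.33, and that of the 8 members 0.34.

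CG3524 had the largest difference, at 749.8 to 846 CPM (median 814) in nonexercised males and 213 to 382 CPM (median 265) in nonexercised females. The ranges were far apart, and the Log2FC was 1.58 ± 0.07 (adjusted p = 4.46e-12). CG3523 ranged from 1825 to 2906 CPM (median 2314) in males and from 1217 to 1719 CPM (median 1497) in females, with a Log2FC of 0.64 ± 0.06. ACC ranged from 1181 to 1559 CPM in males and from 664 to 876 CPM in females, with a Log2FC of 0.82 ± 0.05. All 8 male libraries were above all 8 female libraries for each of these enzymes. In TPM, CG3524 made up 23.4% to 32.4% of both synthases in nonexercised males and 14.2% to 19.8% in nonexercised females.

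The perilipins went in opposite directions between the sexes. Lsd-1 ranged from 98.5 to 179 CPM in nonexercised males and from 44.1 to 91.3 CPM in nonexercised females (Log2FC 1.05 ± 0.08), and Lsd-2 from 118 to 171 CPM in males and from 239.7 to 365 CPM in females (Log2FC -1.08 ± 0.06). Neither pair of ranges overlapped. The ratio of Lsd-1 to Lsd-2 in TPM was 1.84 to 2.68 in nonexercised males and 0.305 to 0.766 in nonexercised females. bmm and SREBP had Log2FC of -0.01 and 0.05, whose signs changed with the normalization. Whole females include ovaries, whose 14 yolk and eggshell genes summed to between 13118 and 24283 CPM, and whole males include testes and accessory glands, whose 9 and 8 markers summed to at least 1108 and 2557 CPM. Their part in these differences was not tested.

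Among exercised flies, 7 of the 8 genes were called between the sexes, beside 86.7% of all genes, so that again a call says little by itself. The median Log2FC was 1.01 for the members and 0.69 for all genes. CG3524 ranged from 767 to 1019 CPM in exercised males and from 96.5 to 205 CPM in exercised females (Log2FC 2.53 ± 0.12). ACC had a Log2FC of 1.62 ± 0.08, CG3523 one of 1.39 ± 0.12, Lsd-1 one of 1.18 ± 0.17 and bmm one of 0.84 ± 0.07. Relative to the median of all genes, that of bmm was 0.15. mdy (-0.73 ± 0.05) and Lsd-2 (-0.85 ± 0.06) were lower in exercised males than in exercised females, although without normalization factors their Log2FC were -0.35 and -0.47, under the threshold. SREBP had a Log2FC of 0.36 ± 0.05, under the threshold, and one of 0.51 with RLE size factors. Without the A31P and R820W male libraries with yolk and eggshell RNA, all 7 calls were made again, with Log2FC of 2.60 for CG3524 and -0.67 for mdy.

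**Figure D3:**
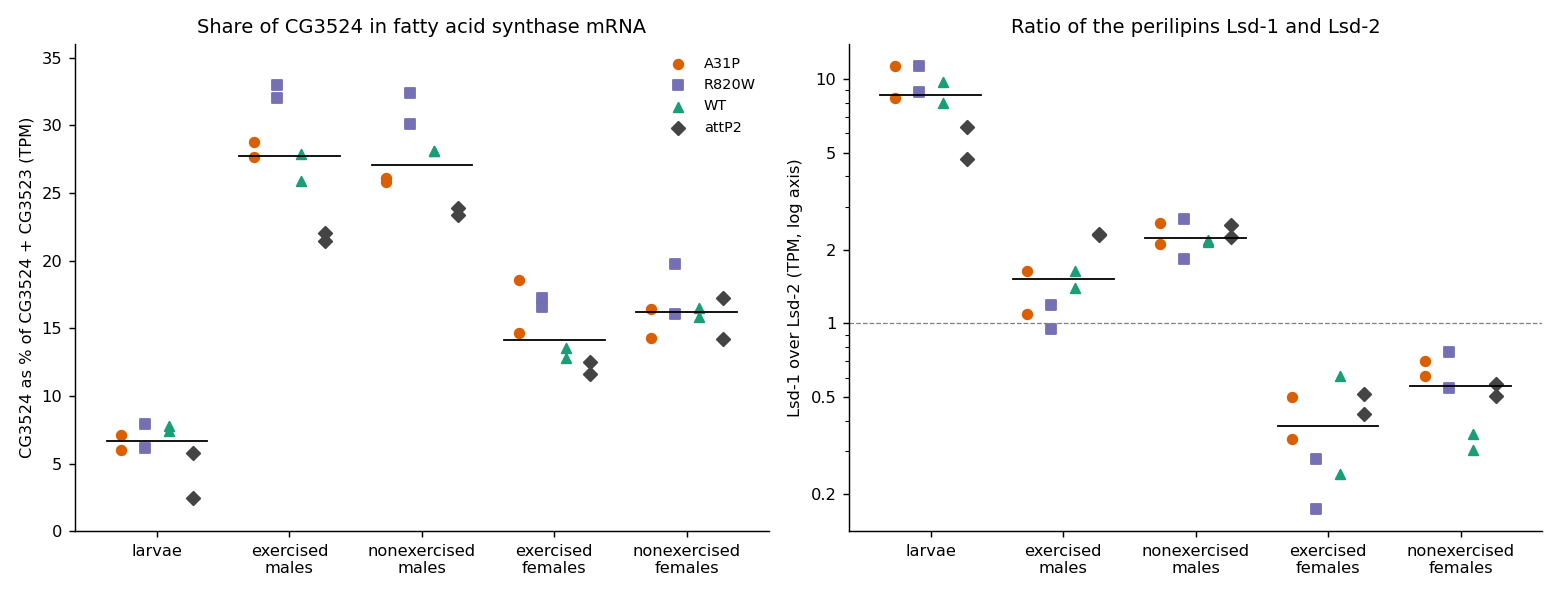
Share of CG3524 in the TPM of both fatty acid synthases (left, percent) and the ratio of Lsd-1 to Lsd-2 in TPM (right, log axis) in each library, with a line at the median of each set. The share is highest in males, with attP2 lowest among them, and the ratio is highest in larvae and below 1 in all females.

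The difference between exercised and nonexercised flies took different forms in the sexes. In females, 3 of 8 genes were called, all of them enzymes of fatty acid synthesis and all lower, beside 41.7% of all genes called and 25.5% called lower. With so many of all genes called, the number of members called says little here. CG3524 ranged from 96.5 to 205 CPM (median 158) in exercised females and from 213 to 382 CPM (median 265) in nonexercised females, without overlap. Its Log2FC was -0.82 ± 0.13 (adjusted p = 0.000109). ACC ranged from 383 to 623 CPM (median 484) in exercised females and from 664 to 876 CPM (median 794) in nonexercised ones, also without overlap, with a Log2FC of -0.62 ± 0.07 (adjusted p = 1.03e-05). CG3523 ranged from 537 to 1329.5 CPM in exercised females and from 1217 to 1719 CPM in nonexercised females, which overlap, with a Log2FC of -0.63 ± 0.12 (adjusted p = 0.000555).

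All 4 genotypes had lower levels of these enzymes in exercised than in nonexercised females, but unequally. For CG3523 the Log2FC was -1.34 in R820W and -0.13 in attP2, and for ACC it was -1.03 and -0.21. Without R820W, the Log2FC of CG3523 was -0.37 and that of ACC -0.46, both under the threshold of 0.5, and only CG3524 stayed called. With replicate 1 alone, CG3523 had an adjusted p of 0.0999 (Log2FC -0.58). mdy, bmm, Lsd-1 and SREBP had Log2FC between -0.18 and 0.14 in females, and Lsd-2 one of 0.33 ± 0.06 (adjusted p = 0.000485), under the fold threshold. The sign of bmm in females changed with the normalization.

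In males, 3 of 8 genes were called as well, and they were other genes, beside 11.3% of all genes called. bmm, the lipase, ranged from 113 to 184 CPM (median 154) in exercised males and from 63.6 to 87.7 CPM (median 77.9) in nonexercised males. The ranges did not overlap, all 4 genotypes were called alone, and the Log2FC was 0.97 ± 0.07 (adjusted p = 7.83e-07). Lsd-2 ranged from 167 to 281 CPM in exercised males and from 118 to 171 CPM in nonexercised males, a Log2FC of 0.55 ± 0.04 (adjusted p = 6.75e-07). mdy ranged from 25.1 to 49.1 CPM in exercised males and from 38 to 63 CPM in nonexercised males, a Log2FC of -0.53 ± 0.05 (adjusted p = 2.03e-06). mdy and Lsd-2 stood close to the threshold. With replicate 1 alone, both missed it, at -0.48 and 0.50. mdy had a Log2FC of -0.45 without WT and -0.23 without normalization factors, and Lsd-2 one of 0.49 without attP2. Without the male libraries with yolk and eggshell RNA, bmm, Lsd-2 and mdy had Log2FC of 0.92, 0.54 and -0.52 and were called. CG3523, CG3524 and ACC had Log2FC of 0.11, 0.11 and 0.16 in males, and of up to 0.40, 0.41 and 0.45 with other normalizations.

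Lsd-1 had no uniform difference with exercise. Its Log2FC in males was -0.56 in R820W and 0.71 in attP2, and its mean over the 4 genotypes was -0.06 ± 0.09. In females it was -0.96 in R820W and 0.51 in WT.

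Whether the difference between exercised and nonexercised flies differed between the sexes was tested as an interaction. It was called for 4 genes, beside 28.4% of all genes (19.6% called higher), and all 4 had a more positive exercise difference in males. The Log2FC of the interaction was 0.90 ± 0.14 for CG3524, 0.80 ± 0.10 for bmm, 0.75 ± 0.08 for ACC and 0.71 ± 0.14 for CG3523, beside a median of 0.11 over all genes. SREBP (0.27 ± 0.05, adjusted p = 0.000348) and mdy (-0.42 ± 0.07, adjusted p = 5.79e-05) passed the p threshold but not the fold threshold, and the sign of mdy changed without normalization factors (0.08). All 4 calls were made again without the male libraries with yolk and eggshell RNA. The CG3523 value rested on R820W and on replicate 2, since it was 0.46 without R820W and had an adjusted p of 0.0979 with replicate 1 alone.

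Whether the exercise difference of a line differed from that of attP2 was also tested. edgeR's quasi-likelihood test called 0 of 48 such interactions, beside 0.0447% of all tests pooled over these 6 comparisons, with 14 at an unadjusted p under 0.05 and 3 called by DESeq2. In single comparisons, 218 to 3029 of 11263 genes in females and 776 to 1208 of 14090 in males had such an unadjusted p. DESeq2's calls were Lsd-1 in R820W males (Log2FC -1.25), Lsd-1 in WT males (-0.94) and ACC in R820W females (-0.82).

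**Figure D4:**
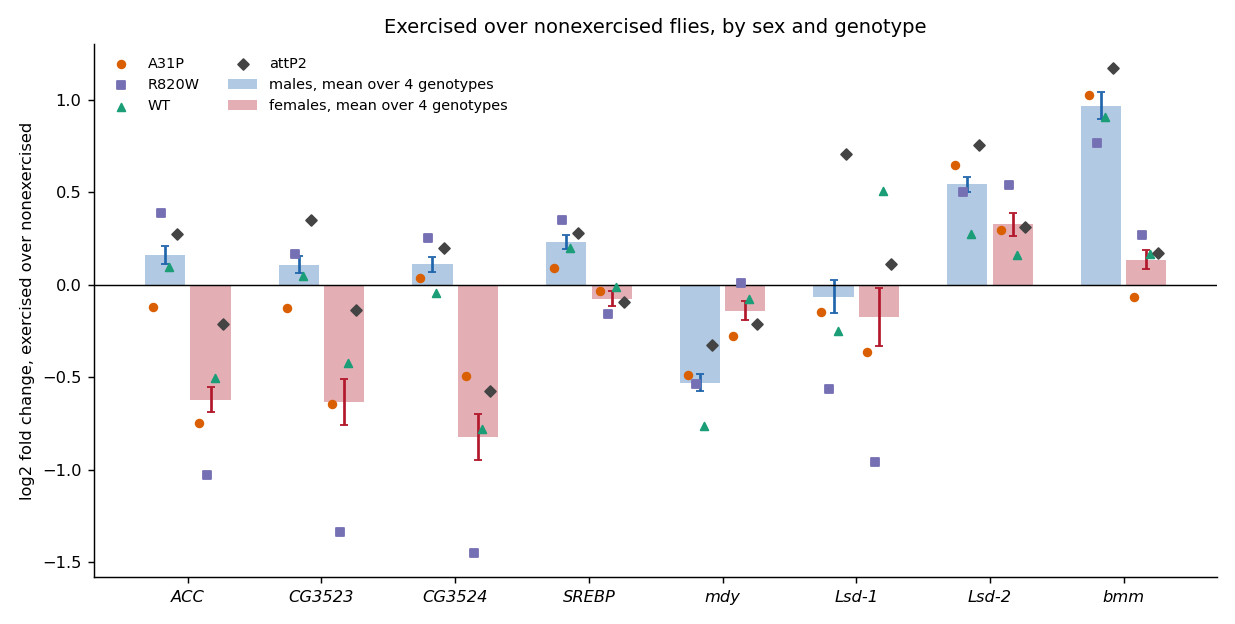
Log2 fold change of exercised over nonexercised flies for each gene, in males (blue bars) and females (red bars), as the mean over the 4 genotypes with its SE, and for each genotype alone (points). Points of ACC, CG3523 and CG3524 in females are below 0 for all genotypes, with R820W lowest, and points of bmm in males are at 0.77 or more.

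Larvae differed from adults in 7 of the 8 genes in either sex, beside 74% of all genes called against nonexercised females and 74.7% against nonexercised males. A call by itself therefore says little in these comparisons. The enzymes of fatty acid synthesis were lower in larvae. CG3524 ranged from 11.7 to 25.2 CPM in larvae, against 749.8 to 846 CPM in nonexercised males (Log2FC -5.76 ± 0.15) and 213 to 382 CPM in nonexercised females (Log2FC -4.14 ± 0.15). ACC ranged from 83.9 to 165 CPM in larvae and had Log2FC of -3.80 ± 0.10 against males and -2.94 ± 0.10 against females. CG3523 ranged from 156 to 620.1 CPM in larvae and had Log2FC of -3.15 ± 0.26 and -2.47 ± 0.25. None of the larval ranges of these 3 genes reached that of nonexercised adults. CG3524 made up 2.50% to 7.92% of the TPM of both synthases in larvae.

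Lsd-1 was the one gene that was higher in larvae. It ranged from 218 to 469.7 CPM in larvae, against 98.5 to 179 CPM in nonexercised males (Log2FC 1.29 ± 0.11) and 44.1 to 91.3 CPM in nonexercised females (Log2FC 2.38 ± 0.11). Lsd-2 was lower in larvae, at 85.5 to 124 CPM, with Log2FC of -0.58 ± 0.07 against males, whose range overlapped (-0.45 with replicate 2 alone and -0.48 without A31P, both under the threshold), and -1.61 ± 0.08 against females. The ratio of Lsd-1 to Lsd-2 in TPM was 4.71 to 11.3 in larvae. The 6 larval fat body markers summed to at least 62055 CPM in larvae and to at most 442 CPM in adults, and their part in these differences was not tested.

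bmm ranged from 23.4 to 39.2 CPM in larvae and was lower than in males (Log2FC -1.30 ± 0.09) and in females (-1.26 ± 0.09). SREBP ranged from 68.7 to 97.8 CPM, with Log2FC of -0.71 ± 0.06 against males and -0.62 ± 0.06 against females, although against females it was -0.44 with RLE size factors, under the threshold. mdy had Log2FC of 0.28 ± 0.10 and -0.04 ± 0.10, whose signs changed with the normalization.

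**Figure D5:**
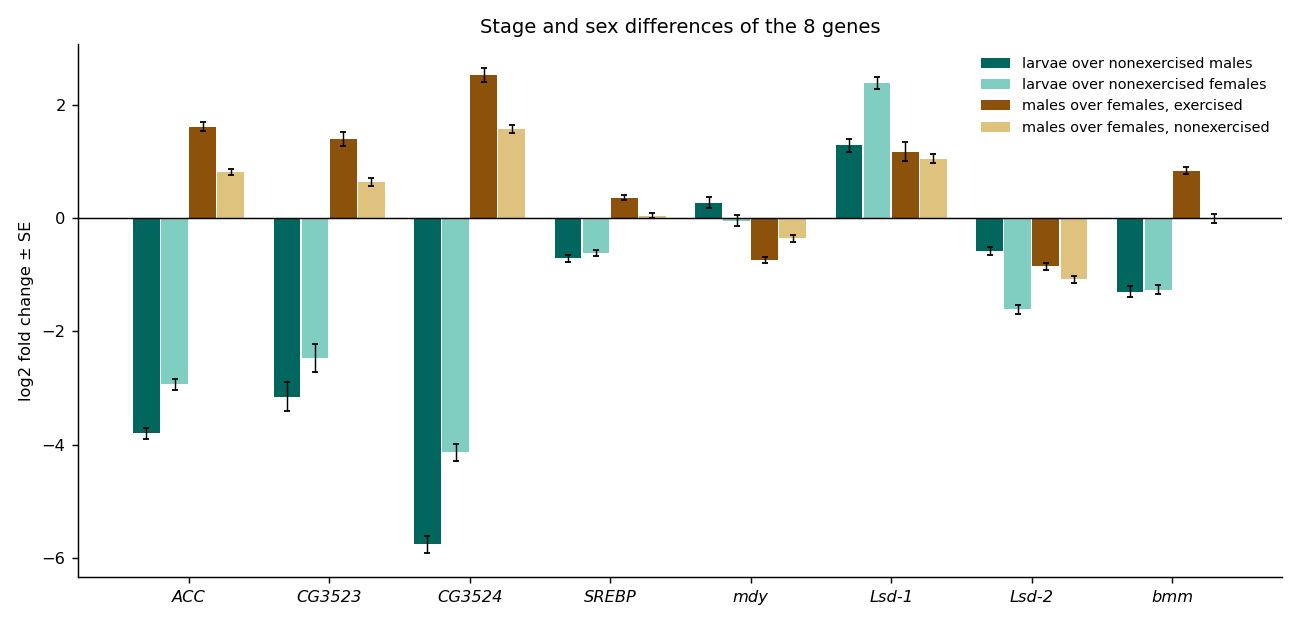
Log2 fold change of each gene between larvae and nonexercised males or females, and between males and females, with SE bars. ACC, CG3523 and CG3524 are far below 0 in larvae and above 0 in males, and Lsd-1 is above 0 in all 4 comparisons.

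The other genes of the pathways were counted by list. In exercised males against attP2, 0.568% of all genes were called in A31P, 0.841% in R820W and 1.14% in WT. In exercised males against attP2, no gene of the 13 of fatty acid synthesis and SREBP processing or of the 10 of triacylglycerol synthesis was called in any line. Of the genes of lipolysis and beta-oxidation, 13 were tested and 1 was called in each line, Lip4, which encodes a lipase of the acid lipase family, with Log2FC of -1.10 in A31P, -1.23 in R820W and -1.04 in WT. Jabba, a droplet protein that binds histones, was the largest call among the 10 droplet coat and lipoprotein genes, with Log2FC of -1.22 in R820W and -1.20 in WT and none called in A31P. Among the 10 nutrient and hormone regulators, sug (sugarbabe), a zinc finger factor induced by dietary sugar, was lower in R820W (-1.38) and WT (-1.24), and its value in A31P, -0.98, missed the threshold. In nonexercised males, AkhR, the receptor of adipokinetic hormone, was called in R820W alone, at -0.67, beside 0.679% of all genes.

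With exercise, CG5966, which encodes a predicted lipase, was the largest call among the genes of lipolysis in both sexes. Its Log2FC was 2.17 in males and 1.95 in females, at 127 to 435 CPM in exercised males against 47.6 to 101 CPM in nonexercised males, and 139.6 to 319 CPM in exercised females against 48.5 to 65.2 CPM in nonexercised females. In females 4 of the 13 tested genes of that list were called higher, beside 16.2% of all genes, and 1 lower, beside 25.5%. In males 1 of 14 was called higher, beside 5.76% of all genes. sug was lower in exercised flies of both sexes, with Log2FC of -0.89 in males and -1.28 in females. CG17374, another fatty acid synthase gene, was lower too, with -0.998 in males and -1.60 in females, whereas Lpin, the phosphatidate phosphatase, was higher in males (0.85).

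Between the sexes, eloF, an elongase of female cuticular hydrocarbons, was the largest call of the fatty acid synthesis list, at 0.205 to 1.54 CPM in nonexercised males against 51.1 to 84.4 CPM in nonexercised females. sit, another elongase, was the reverse, at 18.8 to 26.4 CPM against 0.205 to 0.703 CPM. srl, the fly PGC-1 homologue, measured 12 to 17.6 CPM in nonexercised males and 251 to 422 CPM in nonexercised females. In larvae, 9 of the 13 genes of fatty acid synthesis and SREBP processing were lower than in nonexercised males, beside 40.3% of all genes. None was higher, while 46.0% of all calls in this comparison were higher. Against nonexercised females, 8 were lower and 2 higher, beside 34% and 40% of all genes. The median Log2FC of that list was -2.17 against males, beside -0.06 over all genes, and -0.57 against females, beside 0.06. Lip3, a lipase that was at most 10 counts in any nonexercised adult library, had 17 to 315 counts in larvae.

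Likeness of pattern was measured by Pearson's r over the 20 group means of log2 CPM, among 12702 genes, as a description. Means of sexes and stages dominate it. Closest to CG3524 were CG7910 and CG9813 (r of 0.998 and 0.997), to ACC CG10345 and CG2765 (0.995 and 0.993), to CG3523 Smvt and ninaA (0.989 each), and to SREBP Smvt and Gclc (0.971 and 0.967). Closest to Lsd-2 were olf186-M and milt (0.982 each), to bmm colt and SNF4Agamma (0.978 and 0.976), to Lsd-1 CR46004 and pk (0.958 and 0.952), and to mdy Fis1 and CG7231 (0.884 and 0.872). Among the members themselves, r was 0.990 between ACC and CG3524, 0.989 between ACC and CG3523 and 0.976 between the synthases, and it was -0.83 between the perilipins.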

How the data were processed

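RNA of pools of larvae or 1-week-old adults was depleted of ribosomal RNA and made into directional libraries. The authors demultiplexed reads with bcl2fastq, checked them with FastQC, trimmed them with Cutadapt, removed rRNA reads with TopHat and counted the rest per gene in CLC Genomics Workbench against the release 6 genome. The deposited table holds whole-number counts, used for every test, and TPM values, used to rank genes within a library and for the CG3524 share and the Lsd-1 to Lsd-2 ratio. How reads with several hits were counted is not given in the sources used here.

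Each library took its group from its label. With edgeR 4.0.16 in R 4.3.3, genes passed filterByExpr (minimum count 10, minimum total 15), were normalised by TMM and tested with its quasi-likelihood F test (two-sided, Benjamini-Hochberg adjustment). Lines were tested within each set of 8 libraries, and sex, exercise and stage over 16 libraries (their interaction over 32) as means of the 4 genotypes. Calls needed an adjusted p under 0.05 and an absolute Log2FC over 0.5. Replicates were separate pools, which the study calls biological. Whether they came from separate cultures is not stated, so p-values measure the spread between pools. Totals of 18493813 to 26917796 counts set the depth. At most 2 replicates a group limit the precision.

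The members, lists and tests were chosen with earlier results of these data known. Named are the 8 members, for each member the 2 genes of most similar pattern over group means of log2 CPM (prior count 2, mean CPM of at least 1), and for each list the called gene with the largest absolute Log2FC in each direction. Alternatives were DESeq2 1.42.0, RLE size factors, no filter, no rRNA or 7SL genes, the replicate number as a block, the 2 compared groups alone, each library, replicate number or genotype left out, and a prior count of 0.5 for the pattern. A fit without normalization factors was added after seeing the data. Replicate numbers follow the lane in larvae and nonexercised flies, which pairs these libraries by label. Deviations of same-numbered libraries correlated across genotypes at -0.06 to 0.11 (nonexercised males), 0.08 to 0.47 (nonexercised females) and -0.25 to 0.52 (larvae). Scripts were tested on simulated data.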

Additional observations from a re-analysis of the deposited data

Results flagged for a closer look

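For 4 genes the difference between exercised and nonexercised flies differed between the sexes, by the test of the interaction. The Log2FC of the interaction, males minus females, was 0.90 for CG3524, 0.80 for bmm, 0.75 for ACC and 0.71 for CG3523. CG3524, ACC and CG3523 were lower in exercised than in nonexercised females and had exercise differences of 0.11 to 0.16 in males, whereas bmm was higher in exercised males and had a difference of 0.14 in females. These small values moved with the normalization. In males they reached 0.41 for CG3524, 0.45 for ACC and 0.40 for CG3523, and that of bmm in females ranged from -0.04 to 0.14. Exercised males and females were sequenced in different lanes, so sex and lane cannot be told apart in the exercised flies of this comparison. The 7SL genes took 2.09% to 3.56% of counts in exercised males and 8.08% to 13.3% in exercised females.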

How the results depend on the processing

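Of the 48 differences called for single genes, DESeq2 and RLE size factors ended 1 each, a fit without normalization factors 4, and no filter on low counts, removal of rRNA and 7SL genes and the replicate block none, and no direction turned in any alternative. Fitting only the 2 groups compared ended 4 of 12. Leaving out 1 library or 1 replicate number ended 58 of 168, and leaving out 1 genotype 6 of 144. The cause was not tested, apart from the fewer samples.

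Members called against attP2 numbered 2 to 14 (12 with all libraries) when each library was left out in turn, and members called against WT 0 to 3 (0 with all libraries). Against WT, DESeq2 called 4, no filter on low counts 2, the 2 groups alone 1, and the fit without both exercised male libraries of high yolk RNA 1. With each replicate number left out, 5 members were called between nonexercised males and females, 7 between exercised ones, 2 to 3 for exercise in females, 1 to 3 in males, 7 for larvae against females, 6 to 7 against males and 3 to 4 for sex by exercise. Without R820W, 1 was called for exercise in females. Without normalization factors, 7 were called for sex by exercise, and DESeq2 called 3 for line by exercise. The replicate block called 2 members against WT, both Lsd-1 in nonexercised females, and Lsd-1 in A31P exercised males against attP2 (Log2FC -0.82, adjusted p = 0.0307), and it ended no call. Line by exercise could not be fitted with 1 replicate number.

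Without normalization factors, the share of higher calls among all genes was 89.6% (51.0% with TMM) for exercise in males, 22.1% (38.8%) in females, 39.4% (54.1%) for larvae against females, 30.9% (46.0%) against males and 95.5% (69.2%) for sex by exercise, with median Log2FC of 0.31, -0.19, -0.51, -0.51 and 0.59. With a prior count of 0.5, Pdfr (r = 0.987) replaced ninaA beside CG3523.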
